A study of Mus musculus with 18 samples.

Results

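The colon of mice given RECTAS by mouth was compared with the colon of mice given the carrier alone, from 6 of the 18 libraries of a study that also sampled lung and liver. All mice were C57BL/6N animals 7 weeks old. The RECTAS group received the compound at 100 mg/kg, suspended in 0.5% CMC (carboxymethyl cellulose, an inert thickener), and the vehicle group received 0.5% CMC; both were dosed at 0 h and 4 h, and tissue was taken 8 h after the first dose. Each group has 3 colon libraries, chosen by the tissue and condition named in the labels. The labels do not say whether these are 3 animals, and the p-values therefore rest only on the scatter among these libraries, which may be technical. Of 55401 genes in the files, 14282 reached 1 TPM (a transcript level corrected for gene length and scaled to the same total in every library) in at least 3 of the 6 libraries and were tested. TPM keeps no depth, so the number of reads behind each value is unknown.

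RECTAS, short for rectifier of aberrant splicing, is a synthetic compound. It was described as promoting the inclusion of exons that are otherwise skipped, a step that involves SR proteins such as SRSF6 and the CLK kinases that phosphorylate them. SR proteins bind exons and help the U1 and U2 small nuclear ribonucleoproteins (snRNPs) find the splice sites. The colon wall joins an epithelium of absorbing colonocytes, mucus-making goblet cells and hormone cells to connective tissue, muscle and nerve, and it is the end of the gut that an oral compound reaches last. Gene totals do not show which exons were used, and splicing itself is not analysed here.

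The libraries carried the markers of colon. Slc26a3, the chloride-bicarbonate exchanger of surface colonocytes, was at 335, 322 and 171 TPM in the vehicle libraries and 205, 185 and 419 TPM in the RECTAS libraries, against group means of at most 0.1 TPM in lung and liver. Muc2, the main gel-forming mucin of goblet cells, ranged from 3697 to 8186 TPM with vehicle and from 4543 to 8039 TPM with RECTAS. Car1, a carbonic anhydrase of colonocytes, ranged from 7456 to 25529 TPM and from 11672 to 25706 TPM. For none of these 3 genes did the groups separate, and their log2 differences between RECTAS and vehicle were -0.07 ± 0.37, 0.04 ± 0.33 and 0.13 ± 0.49 (SE, n = 3 per group).

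The largest differences among the 6 libraries did not follow the treatment. Vehicle 1, RECTAS 1 and RECTAS 2 stood on one side, and vehicle 2 and RECTAS 3 on the other. Over all genes tested vehicle 3 lay between them, but in the genes named below it stood with vehicle 2 and RECTAS 3. By those genes the sides hold 1 vehicle with 2 RECTAS libraries and 2 vehicle with 1 RECTAS library, so the division enters every difference between the groups. The labels used here do not say which segment of the colon was taken. Slc37a2, a sugar-phosphate exchanger, was at 77.6, 20.5 and 137 TPM in vehicle 2, vehicle 3 and RECTAS 3 and at no more than 0.7 TPM in the other 3. Reg4, a secreted lectin-like protein, followed it, with 266, 177 and 520 TPM against no more than 20.2 TPM. Hoxa13, a homeobox gene that marks position near the tail end of the body, ran the other way, at 22.5, 13.9 and 10 TPM in vehicle 1, RECTAS 1 and RECTAS 2 and at no more than 0.94 TPM in the others. Hoxa10, Aqp4, Insl5 and Mptx1 were likewise highest in vehicle 1, RECTAS 1 and RECTAS 2.

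Wall tissue moved with this division. The 15 smooth muscle markers summed to 8225, 5270 and 5371 TPM in vehicle 1, RECTAS 1 and RECTAS 2 and to 3473, 3429 and 3046 TPM in vehicle 2, vehicle 3 and RECTAS 3. The 12 fibroblast markers summed to 511, 419 and 433 TPM against 270, 333 and 226 TPM. Colonocyte markers were highest in vehicle 2 and RECTAS 3, at 54342 and 55131 TPM, and between 32135 and 40341 TPM in the other 4 libraries. Neutrophil and mast cell lists had no member that passed the expression filter, and their sums stayed at or below 3.53 TPM in every library. In bulk tissue, fewer cells of a type and less RNA per cell cannot be told apart. The first principal component held 45.2% of the variance. Vehicle 1, RECTAS 1 and RECTAS 2 scored 0.212, 0.145 and 0.124 on it, and vehicle 2 and RECTAS 3 scored -0.193 and -0.263. Vehicle 3 lay near the middle, at -0.025. Correlations between libraries ran from 0.988 to 0.994, and mitochondrial transcripts made up 14.6% to 18.2% of each.

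**Figure D1:**
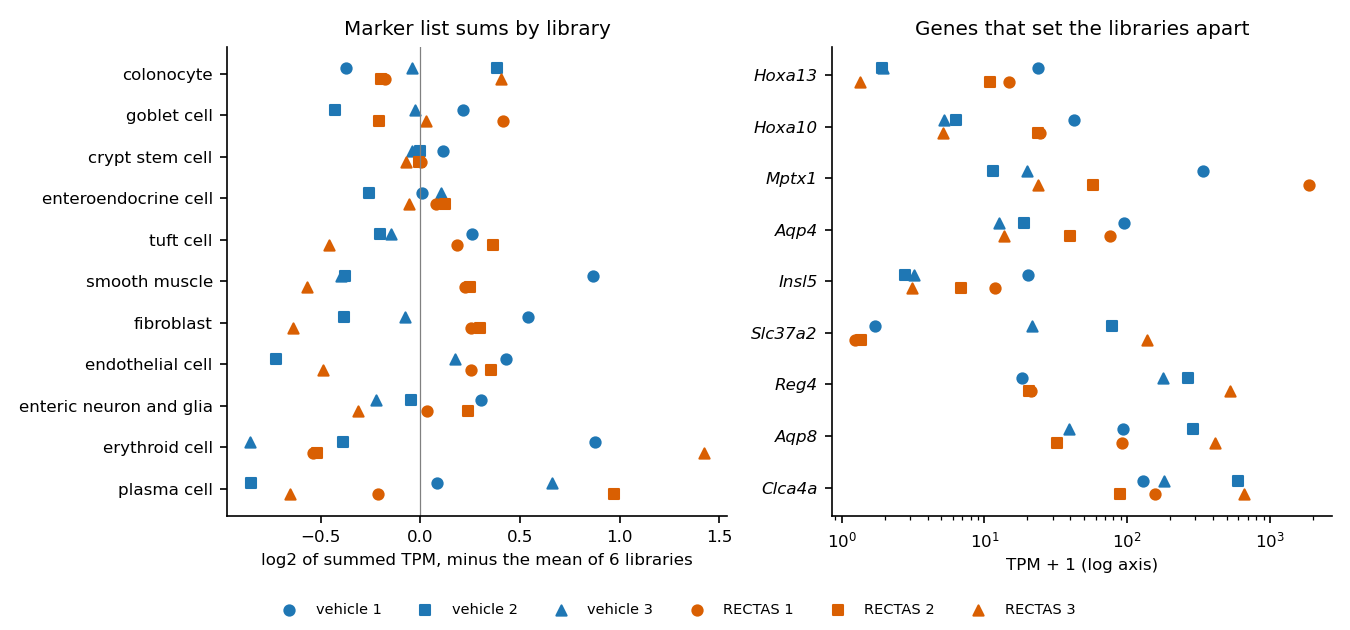
Left: summed TPM of each marker list in each colon library, as log2 minus the mean of the 6 libraries. Right: 9 genes with large weights on the first component, as TPM + 1 on a log axis; blue marks are vehicle and orange marks RECTAS libraries. Slc37a2 and Reg4 were high in vehicle 2, vehicle 3 and RECTAS 3, where Hoxa13 and Hoxa10 were low.

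No gene passed the test for a difference between RECTAS and vehicle in colon. The smallest adjusted p was 0.318 (limma with Benjamini-Hochberg adjustment over 14282 genes), and 231 genes, 1.62%, had an unadjusted p under 0.05, of which 115 (0.805%) were higher and 116 (0.812%) lower with RECTAS. Other scalings of the libraries moved this split, to 101 higher and 157 lower after median ratio scaling, 81 and 139 after rescaling without mitochondrial and top genes, and 104 and 196 after quantile normalisation. The 3 values of one group lay wholly above those of the other in 777 genes, 5.44%, with 490 (3.43%) higher and 287 (2.01%) lower with RECTAS. For the same 14282 genes, the unadjusted share was 13.4% in lung (11.7% higher, 1.7% lower) and 10.7% in liver (3.26% higher, 7.44% lower), also with 0 called in each. Groups were apart in 19.1% of them in lung (16.3% higher, 2.78% lower) and in 16.1% in liver (5.12% higher, 11.0% lower).

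The estimates were nonetheless narrow for most genes on the log2(TPM + 1) scale. In 13574 genes the 95% confidence interval of the difference lay within a 2-fold change of TPM + 1 in either direction. For low genes this allows a larger change in TPM itself. Among the 10100 genes with a mean of at least 5 TPM, 9779 (96.8%) had such an interval. Over all 14282 genes, the median distance from the estimate to either end of its interval was 0.35 on the log2(TPM + 1) scale. The spread between colon libraries of one group was wider than in the other tissues: among genes with a mean of at least 5 TPM, the median SD of log2(TPM + 1) was 0.15 in colon, 0.11 in lung and 0.13 in liver. The median size of the RECTAS difference was 0.06 in colon, 0.10 in lung and 0.11 in liver, and the groups accounted for 11.2%, 25.5% and 32.0% of the variance. The interaction test, which asks whether the RECTAS difference in colon was unlike that in another tissue, called 0 genes against lung (326 with an unadjusted p under 0.05, 2.28%, and 1.73% with colon below) and 3 genes, 0.021%, against liver (759 at the unadjusted threshold, 5.31%, and 1.51% with colon below).

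**Figure D2:**
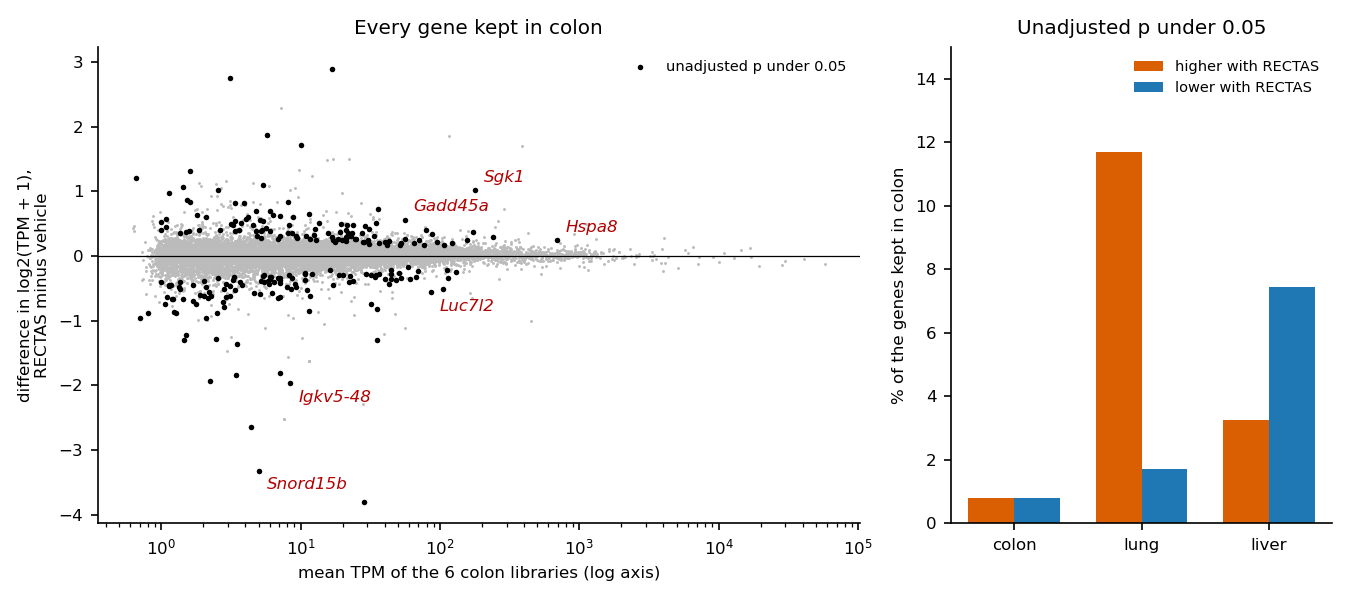
Left: each of the 14282 genes by its mean TPM (log axis) and its difference in log2(TPM + 1) between RECTAS and vehicle in colon, with genes at an unadjusted p under 0.05 in black. Right: the share of these genes with an unadjusted p under 0.05 in each tissue; the colon bars, 0.805% and 0.812%, are the lowest pair.

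The 12 genes with the smallest p among those higher with RECTAS and at 5 TPM or more on average were Dcun1d3, Fggy, Txnl4a, D17H6S53E, B3gnt2, Taf1d, Timm9, Ccl25, Pprc1, Usp10, Nop16 and Kri1. They were chosen for separated groups, each had an adjusted p of 0.9999 (limma), and their differences were 0.26 to 0.62 on the log2(TPM + 1) scale. Dcun1d3, which acts in the attachment of the ubiquitin-like protein NEDD8 to cullins, was at 4.43, 4.25 and 3.91 TPM with vehicle and 6.66, 6.11 and 6.94 TPM with RECTAS. The RECTAS libraries were all above the vehicle libraries and the difference was 0.54 ± 0.12 (SE, n = 3 per group). Fggy, a carbohydrate kinase, was at 5.71, 4.80 and 5.64 TPM against 8.95, 9.96 and 7.54 TPM, a difference of 0.62 ± 0.14.

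Txnl4a, a small protein of the U5 snRNP, was at 10.9, 10.7 and 10.6 TPM with vehicle and 15.2, 15.4 and 13.5 TPM with RECTAS, 0.42 ± 0.10 (SE) higher. The 3 vehicle values lay within 0.3 TPM of each other and below every RECTAS value. Its difference was 0.56 ± 0.18 in lung and 0.48 ± 0.18 in liver, and the colon difference departed from these by -0.14 ± 0.22 and -0.06 ± 0.22. Taf1d, a subunit of the RNA polymerase I initiation factor, ran from 50.2 to 52.1 TPM with vehicle and from 58.4 to 63.5 TPM with RECTAS. Nop16 and Kri1, which act in ribosome assembly in the nucleolus, differed by 0.29 and 0.50.

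Ccl25, a chemokine that draws lymphocytes to the gut, was at 14.5, 16.9 and 18.2 TPM with vehicle and 22, 22.6 and 20.5 TPM with RECTAS. The difference of 0.38 ± 0.11 stood beside 0.54 ± 0.08 in lung and 0.58 ± 0.09 in liver. B3gnt2, which extends N-acetyllactosamine chains on glycoproteins, was at 27.1, 28.8 and 29.8 TPM against 34.5, 39.6 and 50.3 TPM, 0.51 ± 0.14 higher. In liver its difference was -0.60 ± 0.15, and the difference between the tissues, 1.11 ± 0.24, had an adjusted p of 0.287 (limma interaction). Fggy also ran opposite in liver, by -0.20 ± 0.06, with an adjusted p of 0.202 for the difference between the tissues.

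By the same rule, at 5 TPM or more on average, the 12 leading genes in the other direction were Snord15b, Luc7l2, Acot1, Igkv5-48, Rdh5, Rsph3a, Hsd3b2, Stxbp2, Nnt, Khk, Cwf19l1 and Smim5. Snord15b had the smallest p of all 14282 genes, and is a C/D box small nucleolar RNA, a class that guides 2'-O-methylation of ribosomal RNA, encoded within the ribosomal protein gene Rps3. The annotation (GENCODE M21, GRCm38) places it on the minus strand at chr7:99479563-99479707. Its sequence is printed because its length of 145 bases bears on how such a transcript is counted, and capitals mark the C box (TGATGA) and the D box (CTGA) nearest its ends.
Snord15b: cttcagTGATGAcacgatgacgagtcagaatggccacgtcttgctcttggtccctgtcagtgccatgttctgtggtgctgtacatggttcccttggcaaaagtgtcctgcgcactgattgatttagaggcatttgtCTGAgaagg

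Snord15b was at 6.09, 17.2 and 6.68 TPM with vehicle and was listed at 0 in all 3 RECTAS libraries (adjusted p = 0.318, limma). A gene listed at 0 in one group passes the filter only if it is high in all libraries of the other, so such a gene had to differ. In lung it was listed at 0 in 2 of 3 vehicle and 2 of 3 RECTAS libraries, at 8.72 and 21.3 TPM in the others, and in liver it was above 0 only in 1 RECTAS library, at 7.53 TPM. Its host Rps3 was at 726, 626 and 645 TPM with vehicle and 713, 725 and 678 TPM with RECTAS in colon. The libraries were made from poly(A) RNA, and whether the Snord15b reads came from the snoRNA itself or from its host transcript was not tested. The neighbouring snoRNA Snord15a, in the same host, was listed at 0 in all 6 colon libraries. The mirror pattern was shown by Gm28503, a pseudogene of 147 bases listed at 0 in the vehicle libraries and at 5.92, 9.46 and 3.24 TPM with RECTAS, named here after its values were seen.

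Luc7l2, a LUC7-like protein that joins the U1 snRNP at the 5' splice site, had the smallest p of the protein-coding genes among the 12 leading genes lower with RECTAS. Luc7l2 was at 108, 99.8 and 101 TPM with vehicle and 66.9, 81.1 and 62.1 TPM with RECTAS, so the groups did not overlap and the vehicle mean was 1.47 times the RECTAS mean. The difference was -0.56 ± 0.11 (SE, n = 3 per group), with an unadjusted p of 0.00136 and an adjusted p of 0.9999 (limma). Lung had 164 to 183 TPM with vehicle and 117 to 124 TPM with RECTAS, and liver 72.4 to 95.3 TPM and 47.4 to 53.6 TPM. The colon difference departed from that in lung by -0.03 ± 0.15 and from that in liver by 0.17 ± 0.15.

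Acot1, which frees fatty acids from their coenzyme A esters, was at 8.60, 7.91 and 9.21 TPM with vehicle and 6.03, 4.88 and 4.48 TPM with RECTAS, a difference of -0.65 ± 0.14. Khk, the kinase that commits fructose to metabolism, was at 20.6, 20.6 and 20.9 TPM against 16.7, 15.9 and 17.6 TPM, -0.29 ± 0.09. Both had the opposite sign in liver, at 0.76 ± 0.40 and 0.32 ± 0.24, and neither difference between the tissues passed the test. Rdh5, a retinol dehydrogenase, and Hsd3b2, of the 3-beta-hydroxysteroid dehydrogenase family, differed by -0.47 and -0.43; Hsd3b2 belongs to a family of near-identical genes among which reads can be divided. Nnt, the mitochondrial transhydrogenase, has a pair of overlapping identifiers: one was at 7.66 ± 0.95 TPM with vehicle and 4.85 ± 1.07 TPM with RECTAS (SD, n = 3), the other at 12.2 ± 1.54 and 13.8 ± 1.21 TPM, and their sum at 19.9 ± 1.91 and 18.6 ± 2.02 TPM.

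Igkv5-48, an immunoglobulin kappa variable segment, was at 10.4, 5.90 and 26.4 TPM with vehicle and 2.50, 3.64 and 1.23 TPM with RECTAS. Igkv4-53, another such segment, was higher instead, at 0.34, 0.77 and 0.37 TPM against 2.19, 3.14 and 2.79 TPM. Only its RECTAS libraries reached 1 TPM, so it passed the filter through that group alone and its groups had to separate. The plasma cell markers summed to 387 to 1104 TPM with vehicle and 444 to 1369 TPM with RECTAS, and their part in these differences was not tested. Variable segments resemble each other in sequence, so counting could divide their reads.

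**Figure D3:**
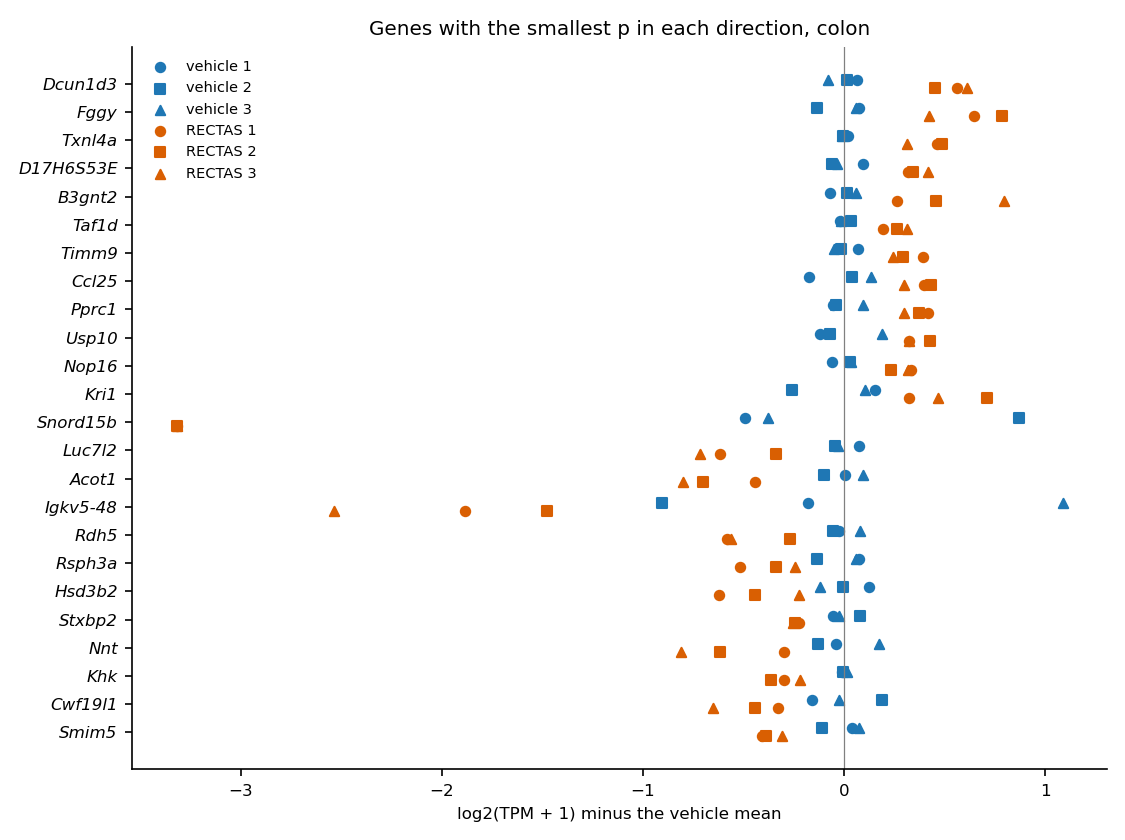
The 24 leading genes, 12 in each direction, as log2(TPM + 1) in each colon library minus the vehicle mean; blue marks are vehicle and orange marks RECTAS libraries. Groups do not overlap because the genes were chosen so, and the 3 RECTAS marks of Snord15b lie on one another at a TPM of 0.

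No gene of the splicing lists passed the test, and the lists are read against all 14282 genes, of which 8170 (57.2%) were higher with RECTAS and the median difference was 0.02. These and all later lists were chosen with earlier results of these data known, so their counts describe the members and are not an independent test. Of the 10 kinases of SR proteins, 5 were higher and 5 lower, with a median log2 difference of 0.00, and none had an unadjusted p under 0.05. Clk1, a kinase that phosphorylates SR proteins in the nucleus, was at 157, 136 and 162 TPM with vehicle and 156, 164 and 138 TPM with RECTAS. The groups overlapped fully, and the 95% confidence interval of the difference ran from -0.23 to 0.25. For Clk2 it ran from -0.31 to 0.29, for Clk4 from -0.33 to 0.12 and for Clk3 from -0.03 to 0.47. Srpk1, the cytoplasmic SR protein kinase, was at 37.9, 38.5 and 39.1 TPM against 44.9, 41.0 and 45.6 TPM, the only kinase of the list whose groups did not overlap (unadjusted p = 0.052, limma).

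Srsf6, an SR protein that binds exonic enhancers, was at 81.1, 74.1 and 88.2 TPM with vehicle and 88.6, 84.2 and 67.2 TPM with RECTAS, with an interval of -0.32 to 0.27. The 12 measured SR protein genes had a median difference of 0.02, with 8 higher and 4 lower, and 4 higher without RECTAS 1. The 26 hnRNP genes, whose products coat pre-mRNA, had a median of 0.04, with 18 higher (10 without RECTAS 1), and the 14 genes of nonsense-mediated decay a median of 0.04, with 9 higher. None in these 3 lists had an unadjusted p under 0.05. Of 12 U1 snRNP and LUC7-like genes, 8 were lower and Luc7l2 alone had an unadjusted p under 0.05; Rbm25 and Tia1, which act with U1, differed by -0.26 and -0.28, and the paralogues Luc7l and Luc7l3 by 0.07 and -0.03.

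Genes that respond to glucocorticoids were compared across the 3 tissues. The list and its members were chosen with earlier results of these data known. The counts below therefore describe these members and are not an independent test. Glucocorticoid receptors, bound by the adrenal steroid corticosterone in mice, switch on genes such as Tsc22d3, Fkbp5, Per1 and Sgk1 in many tissues. Among the 26 measured members, 17 were higher and 9 lower in colon, with a median of 0.07 against 0.02 for all 14282 genes. An unadjusted p under 0.05 was found for 3, against 1.62% of all genes. In lung 23 were higher, with a median of 0.66 and 18 under that p, against 9558 of all genes, a median of 0.06 and 13.4%. In liver 22 were higher, with a median of 0.52 and 12 under it, against 5721 of all genes, a median of -0.02 and 10.7%. The difference between colon and lung was negative for 24 of the 26 (median -0.52), against 8877 of all genes (median -0.05). It had an unadjusted p under 0.05 for 8, against 2.28% of all genes. The difference between colon and liver was negative for 21 (median -0.24), against 5642 of all genes (median 0.04). It had an unadjusted p under 0.05 for 6, against 5.31% of all genes, and of these Ddit4 was called. No gene was called in lung or liver alone, and no member was called against lung.

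Sgk1, a kinase that raises sodium uptake in the colon epithelium, was at 68.5, 127 and 164 TPM with vehicle and 186, 185 and 346 TPM with RECTAS. The groups did not overlap, the means were 120 ± 48 and 239 ± 92.8 TPM (SD, n = 3), and the difference of 1.01 ± 0.36 had an unadjusted p of 0.0259 and an adjusted p of 0.9999 (limma). Vehicle 1 was the lowest and RECTAS 3 the highest of the 6 for Sgk1. These libraries also had the highest and the lowest smooth muscle sum, at 8225 and 3046 TPM. With the smooth muscle level as a covariate, a fit added after the data were seen, the Sgk1 difference was 0.98 (adjusted p = 0.252, limma). In lung and liver Sgk1 differed by 0.68 ± 0.14 and 0.44 ± 0.07, and the differences between tissues, 0.33 ± 0.37 and 0.57 ± 0.37, did not pass the test.

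Tsc22d3, a leucine zipper protein that restrains inflammation, was at 33.5, 19.2 and 21.3 TPM with vehicle and 33.5, 33.0 and 33.9 TPM with RECTAS. Vehicle 1 was as high as the RECTAS libraries, and the difference was 0.47 ± 0.19. Its vehicle mean was 166 TPM in lung and 45.6 TPM in liver, where the RECTAS means were 401 and 142 TPM. Cebpd, a transcription factor of the acute phase, was at 3.16, 3.40 and 4.50 TPM against 5.39, 6.28 and 4.78 TPM in colon, 0.47 ± 0.16 higher. Fkbp5, a co-chaperone of the steroid receptor and the classical target, was at 64.2, 111 and 115 TPM against 88.6, 89.0 and 103 TPM, a difference of -0.01 ± 0.22. Its lung difference was 0.42 ± 0.18, and Fkbp5 in colon did not differ from lung beyond the error (-0.42 ± 0.31).

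Rhob, a small GTPase of endosomes, was at 93.1, 80.5 and 73.2 TPM with vehicle and 71.8, 79.9 and 65.6 TPM with RECTAS in colon (-0.18 ± 0.12), and at 110 and 214 TPM on average in lung. Its colon-to-lung difference of -1.15 ± 0.20 had the smallest p of that comparison, with an adjusted p of 0.394, and was not called. Cdkn1a, the cell cycle inhibitor p21, differed by 0.07 ± 0.12 in colon, 0.73 ± 0.17 in lung and 0.96 ± 0.11 in liver, with an adjusted p of 0.386 for the difference between colon and liver. Nfkbia, the inhibitor of NF-kappa-B, differed by 0.10 ± 0.14 in colon and 0.75 ± 0.13 in lung, and Errfi1, an inhibitor of the EGF receptor, by 0.07 ± 0.20 and 1.44 ± 0.35. These genes were named after their values were seen, except Rhob.

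**Figure D4:**
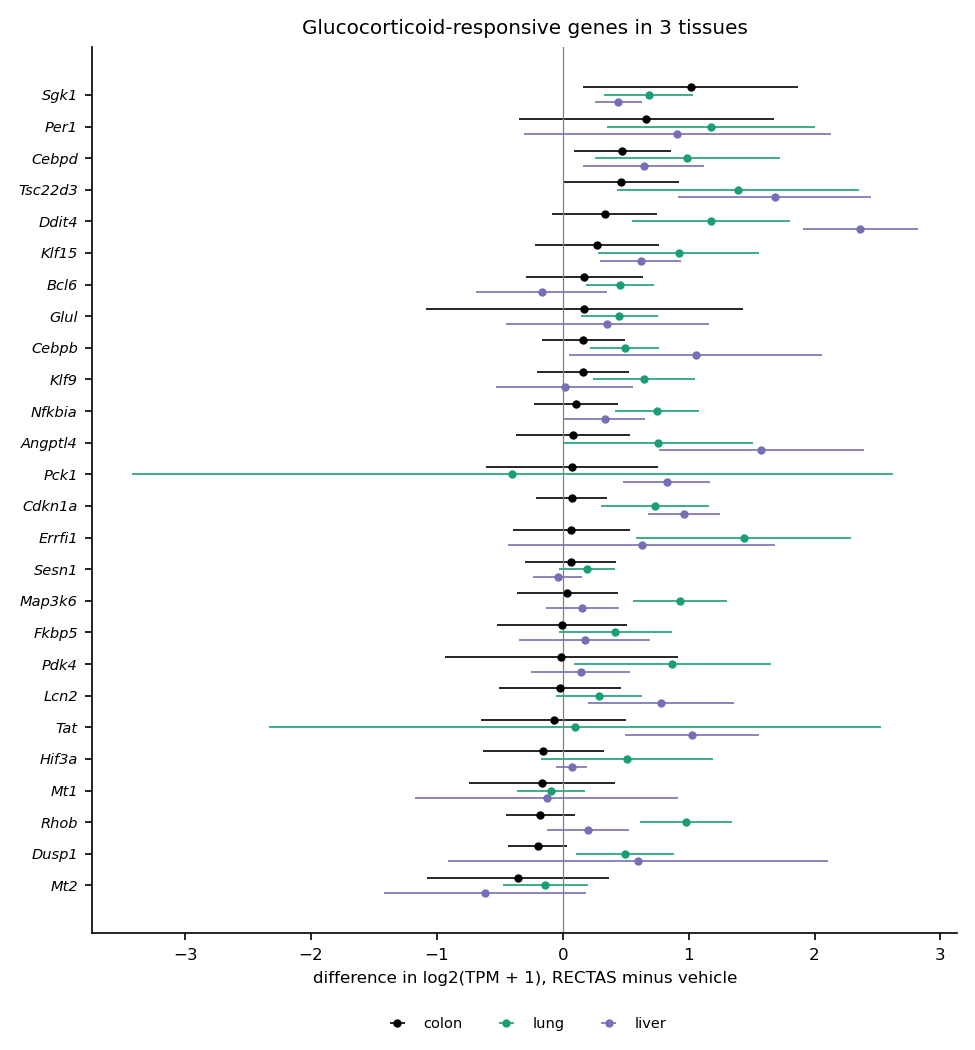
Differences in log2(TPM + 1) between RECTAS and vehicle for the 26 glucocorticoid-responsive genes, with 95% confidence intervals from limma fits within each tissue (3 libraries per group). Most lung (green) and liver (violet) points lie to the right of the colon points (black), with Sgk1 an exception.

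The 3 genes whose RECTAS difference in colon departed from liver were Arrdc2, Ddit4 and Txnip. Arrdc2, an alpha-arrestin that marks membrane proteins for uptake, was at 15, 18.7 and 14.9 TPM with vehicle and 13.7, 15 and 11.8 TPM with RECTAS in colon, against 8.04, 9.39 and 8.45 TPM and 21.9, 35.4 and 29.1 TPM in liver. The difference between the tissues was -1.85 ± 0.23 (adjusted p = 0.00774, limma interaction). Against lung, where Arrdc2 was 0.79 ± 0.14 higher, it was -1.03 ± 0.23 with an adjusted p of 0.858. Ddit4, an inhibitor of the growth kinase mTORC1, was at 20.3, 16 and 23.3 TPM and 26.8, 28.9 and 20.3 TPM in colon, where the groups overlapped, and at 2.52 to 4.43 TPM and 19.7 to 24.2 TPM in liver. The difference between the tissues was -2.03 ± 0.31 (adjusted p = 0.049).

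Txnip, an alpha-arrestin that limits glucose uptake, was abundant in colon, at 721, 740 and 730 TPM with vehicle and 768, 877 and 796 TPM with RECTAS. The groups did not overlap, with a difference of 0.15 ± 0.08. In liver it was at 72.2, 79.7 and 72.5 TPM with vehicle and 41.5, 29.3 and 41.2 TPM with RECTAS, so the RECTAS libraries were all below. The difference between the tissues was 1.15 ± 0.18 (adjusted p = 0.049). The call for Ddit4 was lost when any 1 colon library was left out, with adjusted p-values of 0.0559 to 0.119, and so was that for Txnip, at 0.101 to 0.121. Phlda1, a regulator of cell survival, came next, with 0.53 ± 0.25 in colon and -1.22 ± 0.19 in liver (adjusted p = 0.0732 for the difference between tissues). With RECTAS 2 left out it was called (adjusted p = 0.0028, limma interaction).

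Of the 23 heat shock genes, 21 were higher with RECTAS (median difference 0.14, against 57.2% higher and 0.02 over all genes). An unadjusted p under 0.05 was found for 3 members, against 1.62% of all genes. Over all 14282 genes the groups were apart with RECTAS higher in 3.43% and with RECTAS lower in 2.01%. In the heat shock list they were apart with RECTAS higher in 6 (Hspa8, Fkbp4, Cacybp, Chordc1, Hspd1 and Bag3) and with RECTAS lower in none. Heat shock factor 1 drives these genes through repeats of the units GAA and TTC, and their products fold or rescue other proteins. Of the 23 members, 18 had a promoter window in the RefSeq table (GRCm38.p6, 250 bases before to 50 after the start). The element searched was GAANNTTCNNGAA or TTCNNGAANNTTC, which are each other's reverse complement and so cover both strands, with overlapping matches counted. It was found in 198 of 32851 windows, 0.603%, which belong to 179 of 27025 genes, 0.662%, and in windows of 4 of the 18 members: Hsph1, Hspd1, Hspe1 and Chordc1, with the Hspd1 and Hspe1 windows overlapping. These matches are shown because the genes stand among the members described; they are a description, not a binding site or a cause.

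The 3 stretches printed here, from the RefSeq table, lie on chr5:149636287-149636316 (minus strand, Hsph1), chr1:55087933-55088182 (minus strand, Hspd1, the 250 bases before 1 of its starts) and chr9:18292259-18292288 (plus strand, Chordc1), with the element in capitals.
Hsph1: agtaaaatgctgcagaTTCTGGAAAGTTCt
Hspd1: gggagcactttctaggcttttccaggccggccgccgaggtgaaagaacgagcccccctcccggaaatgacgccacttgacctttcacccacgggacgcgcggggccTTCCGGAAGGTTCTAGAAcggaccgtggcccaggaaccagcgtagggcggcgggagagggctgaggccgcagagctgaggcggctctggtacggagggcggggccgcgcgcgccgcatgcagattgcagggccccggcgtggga
Chordc1: accgGAACGTTCGGGAAAATTCCTGAAgca

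Hspa8, the constitutive HSP70 of the cytosol, was at 656, 607 and 626 TPM with vehicle and 763, 684 and 800 TPM with RECTAS, 0.25 ± 0.09 (SE) higher. Hsph1, the HSP110 exchange factor for HSP70, was at 22.3, 16.2 and 20.4 TPM against 31.2, 21.2 and 31.5 TPM, 0.48 ± 0.18 higher, with RECTAS 2 inside the vehicle range. Dnaja1, an HSP40 partner of HSP70, was at 67.6, 77.7 and 85.5 TPM against 93.4, 84.4 and 115 TPM. Chordc1, an HSP90 co-chaperone, and Hspd1, the mitochondrial HSP60, differed by 0.19 and 0.18. The adjusted p of each of these 5 genes was 0.9999 (limma). The list had medians of 0.22 in lung and 0.30 in liver, against 0.06 and -0.02 for all genes. Its colon-minus-lung and colon-minus-liver medians were -0.05 and -0.16, against -0.05 and 0.04. Between 18 and 23 members were higher when any 1 of the 6 libraries was left out.

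**Figure D5:**
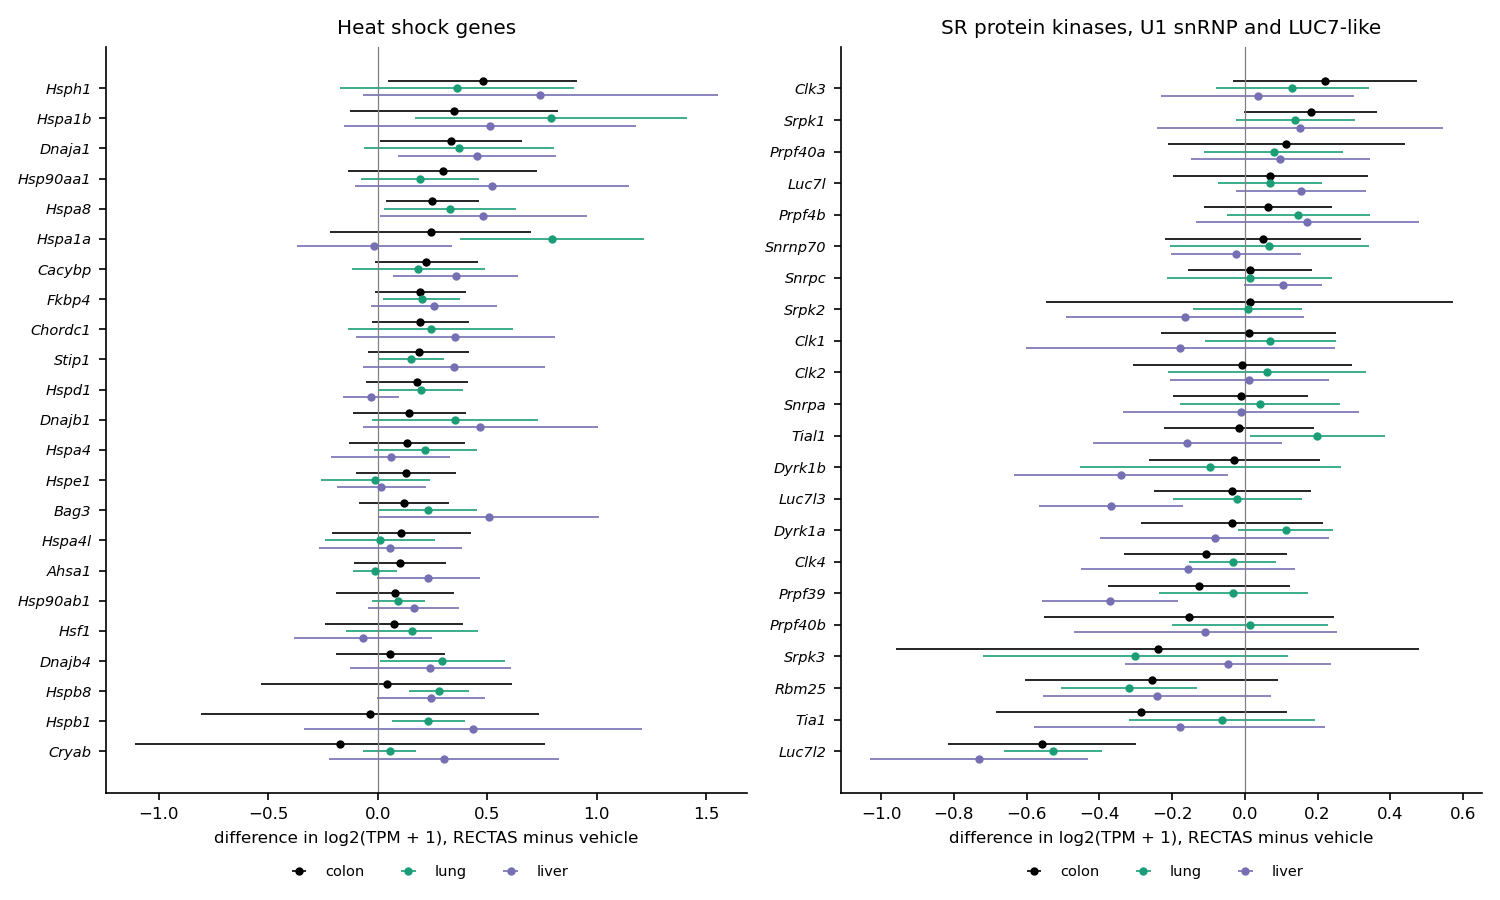
Differences in log2(TPM + 1) between RECTAS and vehicle with 95% confidence intervals (limma within each tissue, 3 libraries per group) for heat shock genes on the left, and kinases of SR proteins with U1 snRNP and LUC7-like genes on the right. Most heat shock points lie right of 0, and Luc7l2 lies left of 0 in colon, lung and liver.

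Genes of cholesterol synthesis and its regulation were higher in 27 of 29 members, with a median of 0.20. An unadjusted p under 0.05 was found for 1, against 1.62% of all genes. Scd2, a desaturase of fatty acids, was at 124, 164 and 161 TPM with vehicle and 226, 161 and 197 TPM with RECTAS. Lss, lanosterol synthase, was at 16.2, 23.3 and 16.1 TPM against 28.7, 20 and 24.5 TPM. RECTAS 1 was the highest library for both. Without RECTAS 1 the list had 20 of 29 members higher and a median of 0.06. The unfolded protein response list had 19 of 21 members higher (median 0.08) and none with an unadjusted p under 0.05, and the hypoxia and glycolysis list 19 of 22 (median 0.09), again with none.

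Among early response genes, 14 of 25 were higher and 3 had an unadjusted p under 0.05, against 57.2% and 1.62% of all genes. Klf2, a transcription factor of quiescent cells, was at 3.90, 1.91 and 3.09 TPM with vehicle and 4.34, 4.54 and 4.67 TPM with RECTAS. Dusp6, the phosphatase of ERK, was at 17.2, 18.9 and 16.3 TPM against 29.4, 17.8 and 28.3 TPM, and Btg2, an antiproliferative gene, at 64.2, 56.1 and 60.1 TPM against 67.3, 68.4 and 71.9 TPM. Gadd45a, a stress gene under p53, was at 36.4, 50.8 and 48.6 TPM with vehicle and 57.3, 62.5 and 82.7 TPM with RECTAS, 0.56 ± 0.17 higher. In liver Gadd45a differed by -0.84 ± 0.37, and the difference between the tissues, 1.40 ± 0.36, had an adjusted p of 0.577. Txnrd1, a thioredoxin reductase under NRF2, was at 107, 119 and 115 TPM against 138, 128 and 128 TPM, and 25 of the 30 NRF2 targets were higher, with a median of 0.06. Without vehicle 1, 15 of the 30 were higher and the median was 0.0049.

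Immune lists were divided in direction. Of 30 type I interferon-stimulated genes, 25 were higher in colon (median 0.13), whereas 4 were higher in lung (median -0.18) and 3 in liver (median -0.30). Of all 14282 genes, 8170 were higher in colon, 9558 in lung and 5721 in liver. The colon-minus-liver difference had an unadjusted p under 0.05 for 8 of the 30, against 5.31% of all genes, and none was called. The colon median rested on vehicle 1, the lowest library of the list at a sum of 492 TPM against 606 to 675 TPM in the other 5: without it 13 of 30 were higher and the median was -0.01. Ifi27l2a, the only member with an unadjusted p under 0.05 in colon, was lower, at 41.6, 33.4 and 40.1 TPM with vehicle and 33.7, 28.6 and 28.4 TPM with RECTAS. In the interferon gamma list 14 of 15 members were lower (median -0.16), none with an unadjusted p under 0.05. Vehicle 2 was highest, at a sum of 276 TPM against 188 to 206 TPM in the others, and without it 6 of 15 were higher.

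Gzma, a protease of cytotoxic lymphocytes, was at 0.59, 0.77 and 0.29 TPM with vehicle and 1.54, 3.40 and 2.03 TPM with RECTAS, 1.07 ± 0.25 (SE) higher with separated groups. Only the RECTAS libraries reached 1 TPM, so Gzma passed the filter through that group alone and its groups had to separate. The 16 T and NK cell markers summed to 24.1 to 30.6 TPM with vehicle and 27.8 to 36.3 TPM with RECTAS, and their part in the difference was not tested. In lung and liver Gzma differed by -0.05 ± 0.26 and -0.08 ± 0.13.

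Genes for the work of the colon epithelium did not differ beyond the library spread. Of the 24 measured ion transport genes, 12 were higher and 12 lower, with a median of 0.01 and none with an unadjusted p under 0.05. Cftr, the chloride channel of crypt secretion, was at 34.6, 33.1 and 33.0 TPM with vehicle and 33.3, 31.3 and 29.1 TPM with RECTAS, and its interval ran from -0.30 to 0.09. The 15 crypt stem cell genes had a median of -0.02, which ran from -0.15 without RECTAS 1 to 0.14 without RECTAS 3. The 32 cell cycle genes had a median of -0.03, with 4 higher (median -0.27) without RECTAS 1 and 27 higher (median 0.14) without RECTAS 3. The 26 genes of xenobiotic metabolism had a median of 0.03, which ran from -0.09 without vehicle 1 to 0.14 without vehicle 2. Each of the 18 colonocyte and the 18 goblet cell genes had overlapping groups. Of the 18 goblet cell genes, 13 were higher (median 0.13), and without RECTAS 1 the median was -0.04. The 14 enteroendocrine markers had 11 members higher and a median of 0.11, but 5 higher and a median of -0.02 without vehicle 2. Of the 8 MHC class II genes 7 were higher, with a median of 0.27. Neither list held an unadjusted p under 0.05. Among the 34 PPAR targets and fatty acid oxidation genes, 24 were higher and Acot1 alone had an unadjusted p under 0.05. Without vehicle 1, 12 of the 34 were higher (median -0.03), and without RECTAS 3, 16 were. The 20 circadian clock genes had 15 higher (median 0.10). Per1, a clock repressor that also responds to glucocorticoids, was at 7.72, 15.3 and 30.8 TPM with vehicle and 20, 27.1 and 29.4 TPM with RECTAS, so its vehicle libraries alone spanned more than the difference between the groups.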

How the data were processed

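Poly(A) RNA of 18 mouse tissue libraries (colon, lung and liver, 3 vehicle and 3 RECTAS each) was sequenced from stranded mRNA libraries, per the labels' protocols. The deposited values are TPM per gene; the submitters' processing notes name HISAT2 2.2.0, RSEM 1.3.0 and GRCm38, and which step each served is not given in the sources used here. Genes reaching 1 TPM in 3 or more of the 6 colon libraries were tested on log2(TPM + 1) with limma 3.58.1 in R 4.3.3 (moderated test with trend, two-sided, Benjamini-Hochberg adjustment, called at an adjusted p under 0.05). The log2(TPM + 1) scale understates the change of low genes. Lung and liver effects were fitted within tissue, and colon against lung or liver as an interaction in 1 fit of 18 libraries. The fits were tested on simulated data. Identifiers were matched to GENCODE M21, and 260 had no match.

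Genes named are up to 12 per direction with separated groups, filled by smallest p at a mean of 5 TPM or more and passing over predicted genes and pseudogenes; up to 3 per list of 52 lists; 5 per interaction; the colon markers, Cftr, Clk1 to Clk4 and Srsf6. Named outside the rule are Cdkn1a, Nfkbia, Errfi1, Fkbp5, Chordc1, Hspd1, Fkbp4, Cacybp, Bag3, Luc7l, Luc7l3, Gm28503 and the genes that divide the libraries (Slc37a2, Reg4, Hoxa10, Aqp4, Insl5, Mptx1), chosen after their values were seen. Some results are not reported here. The lists and members were chosen with earlier results of these data known. Pseudocount, filter, scaling, pooled fit, weights, replicate block and left-out libraries were varied; 2 alternatives (without genes under 300 bases, smooth muscle level) were added after seeing the data.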

Additional observations from a re-analysis of the deposited data

Results flagged for a closer look

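In 3 genes the RECTAS difference in colon departed from that in liver by the interaction test. For Arrdc2 the colon difference minus the liver difference was -1.847 on the log2 scale, and its adjusted p stayed between 0.00504 and 0.0388 under the 13 alternatives run. For Ddit4 it was -2.028, with adjusted p-values from 0.0127 to 0.302 over the same alternatives. For Txnip it was 1.154, with adjusted p-values from 0.035 to 0.229.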

How the results depend on the processing

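The count of 0 called genes in colon (231 with an unadjusted p under 0.05) became 2 with a pseudocount of 0.1 TPM (Gm28503 and Snord15b) and 2 with all 18 libraries in 1 fit (Igkv8-28 and Asprv1), and ran from 0 to 1 with a library left out (Gm12671 without vehicle 1, Snord15b without vehicle 2, Gm27286 without RECTAS 1). Gm28503, Snord15b, Igkv8-28 and Asprv1 reached 1 TPM in only 1 group, so the filter alone made their groups separate. The unadjusted count of 231 became 731 with no filter, 398 with all 18 libraries, 401 with array weights and 371 with the smooth muscle covariate. The colon-to-lung comparison called 15 genes with no filter, and its unadjusted count became 507 with a pseudocount of 5 TPM, 1433 with no filter, 200 with a filter of 5 TPM and 376 to 548 with a library left out. The colon-to-liver comparison called 1 gene with a pseudocount of 5 TPM, 5 with no filter and 1 to 3 with a library left out. Arrdc2 was called in each of these settings. It was joined by Gm7802, Gm48265, C430002N11Rik and Gm6378 with no filter, by Gm28036 and Id3 without vehicle 3, and by Phlda1 without RECTAS 2. Only colon libraries were left out, and none of lung or liver. The unadjusted count against liver became 1412 with no filter and 664 to 1194 with a library left out. The cause of these shifts was not tested. Correlations of same-numbered deviations were 0.354, -0.294 and 0.0387, and those of other pairs ran from -0.452 to 0.454. These values cannot tell whether the replicate numbers pair the samples. With the replicate block, 205 colon genes had an unadjusted p under 0.05, 0 were called, and 1 was called against liver. Of 67 gene differences recomputed, 58 kept their direction throughout; none of the 9 others was past the threshold. They were Clk1 (-0.015 rescaled without mitochondrial and top genes, -0.033 after quantile normalisation), Muc2 (-0.068 after quantile normalisation) and Clk2 (0.012), Srsf6 (0.0048), Car1 (-0.18) and Errfi1 (-0.024) with array weights; Slc26a3, Fkbp5 and Cdkn1a turned only with a library left out. With a library left out, Clk1 ran from -0.065 to 0.082, Clk2 from -0.079 to 0.10, Srsf6 from -0.10 to 0.094, Slc26a3 from -0.44 to 0.15, Muc2 from -0.27 to 0.30, Car1 from -0.36 to 0.53, Errfi1 from -0.10 to 0.23, Fkbp5 from -0.27 to 0.14 and Cdkn1a from -0.040 to 0.17. Depth is unknown from TPM, so counting error cannot be separated from library spread.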
